A study of Homo sapiens with 9 samples.

Results

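The genes of the proteasome and of the cytosolic chaperonin were followed in HAL-01, an established human line of lymphoblastic leukemia of the B lineage in which the fusion TCF3::HLF acts as a transcription factor. Every cell stably carried Cas9 with GFP. Enhancer KO libraries came from cells that received sgRNA_96 or sgRNA_97, guides aimed at the HLF motif of the MEF2C enhancer, and control libraries came from cells with the scrambled guide SCR1. All were collected on day 13, with replicates 1, 3 and 4 of each guide, which makes 6 KO and 3 SCR1 libraries. The cells are 1 line, the share of edited cells in each library was not analysed here, and nothing in the labels says whether replicates came from separate transductions, so p-values measure the spread between these libraries only. Members were the protein-coding genes of GENCODE release 44 whose symbols begin with PSMA to PSMG followed by a digit, together with TCP1, CCT2 to CCT5, CCT6A, CCT7 and CCT8, without symbols that hold a hyphen. This rule found 58 of 20046 protein-coding genes, 50 with PSM symbols and 8 of the chaperonin. It used no measured value, but the members were chosen with earlier results of these data known. Of the 58 genes, 56 passed the count filter among 14436 genes tested.

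The proteasome is the protease that degrades ubiquitin-tagged proteins in the cytosol and nucleus. Its barrel-shaped core has outer rings of alpha subunits, which gate the entrance, and inner rings of beta subunits, of which PSMB5, PSMB6 and PSMB7 carry the active sites. A regulatory particle sits on the core and has a base, with the ATPases PSMC1 to PSMC6 that unfold substrates, and a lid, in which PSMD14 removes ubiquitin. In lymphoid cells and under interferon the subunits PSMB8, PSMB9 and PSMB10 replace the constitutive active subunits and form the immunoproteasome, which shapes the peptides presented on MHC class I, and PSME1 with PSME2 forms an interferon-inducible activator cap. The chaperonin TRiC is a barrel of TCP1 and the CCT subunits that folds actin, tubulin and other newly made proteins inside its chamber.

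Libraries held 15212462 to 29777361 estimated counts, the deepest being SCR1 replicate 1, and expression is given as CPM, counts scaled to library size with TMM. All 9 B lymphoid leukemia markers examined exceeded 1 TPM. The T cell markers CD3D, CD3E and CD3G and all 5 erythroid markers were listed at 0 in every library, while TRAC, a T cell receptor constant gene, CSF1R, MPO and PDGFRB exceeded 1 TPM. The summed level of the 9 B lymphoid markers was 4492 to 4696 TPM in SCR1 and 4492 to 4851 TPM in the KO libraries, so the groups overlapped. The summed level of the 5 T cell markers, nearly all of it TRAC, was 82.6 to 88.4 TPM in SCR1 and 67.8 to 79.8 TPM in the KO libraries. These ranges did not overlap, but in CPM 10.2% of all genes tested had every KO library below every SCR1 library. No test of TRAC is given here, and its part in the results was not tested. MEF2C itself, the gene whose enhancer was targeted, measured 559.5, 559 and 536 CPM in SCR1, 495, 498 and 510.1 with sgRNA_96 and 553, 505 and 495 with sgRNA_97, and its log2 fold change in the 6 KO libraries was -0.12 ± 0.04 (SE), adjusted p = 0.062 (edgeR). Bulk RNA cannot tell fewer cells of a kind from less RNA per cell.

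In the control cells the proteasome and chaperonin genes were abundant and spanned 15.4 to 1084 TPM, a unit that corrects for transcript length and so allows genes to be compared. PSMA6, an alpha subunit, stood far above the other members at 1084 ± 27.0 TPM (SD, n = 3), while PSMA5 was the lowest of the alpha ring at 93.1 ± 2.58 TPM. Most of the PSMA5 level was assigned to transcripts without a defined coding sequence, at 71.4 and 16.0 TPM, while its coding transcript PSMA5-201 had 4.37 TPM. PSMA6 shares exons with a second gene model on the same strand, ENSG00000258790, so its level rests on how Salmon divided the reads. Exons were also shared with another gene model on the same strand in PSMA1, PSMA2, PSMB9, PSMB10, PSMC2, PSMD9, PSME2, PSMF1 and TCP1. In the beta ring the means ran from 110.2 ± 6.39 TPM for PSMB2 to 328 ± 13.8 TPM for PSMB4. For PSMB2, 77.2 TPM was likewise assigned to a transcript without a defined coding sequence. Base subunits ran from 54.3 ± 4.58 TPM for PSMC2 to 188 ± 0.644 TPM for PSMC1, and lid subunits from 37.9 ± 5.44 TPM for PSMD12 to 182 ± 9.54 TPM for PSMD8. Of the PSMC1 level, 81.0 TPM was assigned to a transcript with a retained intron and 96.7 TPM to the coding PSMC1-202. The coding PSMC3-212 had 133 TPM. Among the immunoproteasome genes PSMB10 was lowest at 113 ± 8.19 TPM and PSME1 highest at 403 ± 6.28 TPM.

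**Figure D1:**
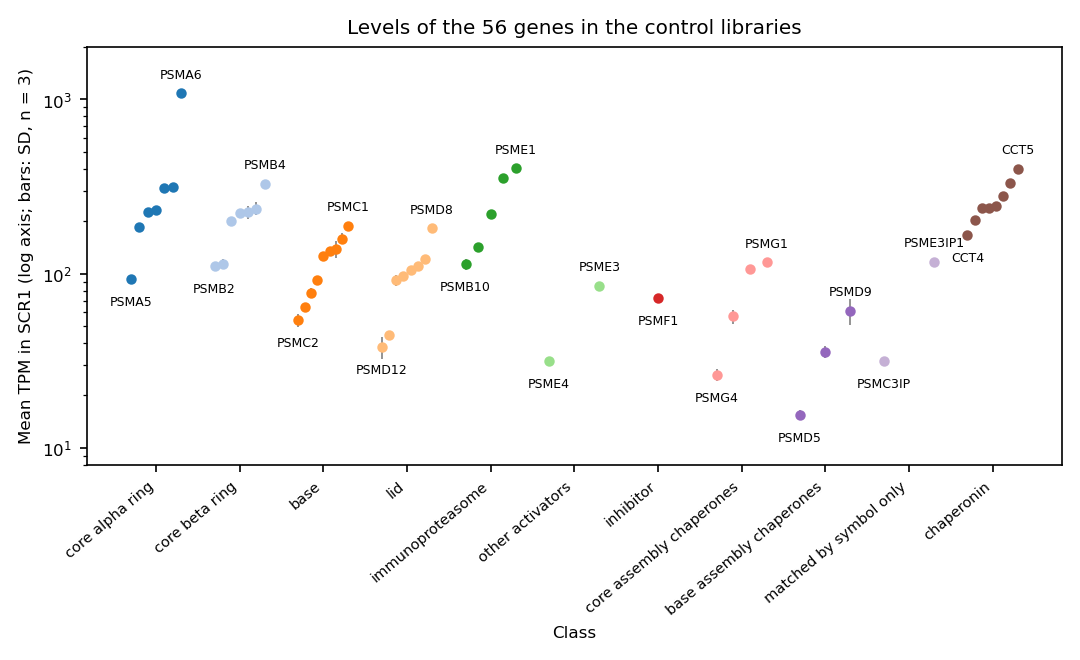
Mean TPM of the 56 tested genes in the 3 SCR1 libraries on a log axis, grouped by class, with bars for the SD and names for the lowest and highest gene of each class. PSMA6 stands alone at 1084 TPM, and the chaperonin genes lie between 167 and 401 TPM, a narrower range than that of the core, base or lid genes.

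The 8 chaperonin genes lay closest together. CCT4 was lowest at 167 ± 2.26 TPM and CCT5 highest at 401 ± 13.4 TPM, a 2.41-fold range, against 11.6-fold in the alpha ring, 2.97-fold in the beta ring, 3.46-fold in the base and 4.81-fold in the lid. These levels are sums over all transcripts of a gene. For CCT5, 103 TPM was assigned to a transcript with a retained intron and 248 TPM to the coding CCT5-203. The coding CCT7-201 had 292 TPM. The other activators were PSME3, which caps nuclear proteasomes, at 85.5 ± 2.50 TPM and PSME4 at 31.4 ± 1.81 TPM. Chaperones that assemble the particle were less abundant: among those of the core PSMG4 had 26.3 ± 2.16 TPM and PSMG1 116 ± 7.09 TPM, and among those of the base PSMD5 had 15.4 ± 1.04 TPM and PSMD9 61.3 ± 10.4 TPM. Of the PSMG1 level, 33.7 TPM was assigned to the coding PSMG1-202. Most of the rest was assigned to transcripts with a retained intron or annotated as targets of nonsense-mediated decay. The inhibitor PSMF1 measured 72.4 ± 0.542 TPM. PSMC3IP, a meiotic recombination factor at 31.6 ± 0.766 TPM, and PSME3IP1, which binds PSME3, at 117 ± 5.18 TPM matched by symbol alone and were kept apart. PSMA8, the testis paralogue of PSMA7, had at most 2 counts in a library, and PSMB11, the thymus paralogue of PSMB5, had 0 in all, so neither was tested.

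With guides against the MEF2C enhancer, 39 of the 56 tested genes fell and 0 rose at an adjusted p under 0.05. Over all 14436 genes 10.6% were called lower and 10.1% higher, 20.7% in either direction. The falls were small, from 9.47% to 20.5% of the mean CPM in SCR1 with a median of 15.2%. The summed TPM of the 56 genes was 9646 to 9923 in the SCR1 libraries and 8411 to 9344 in the KO libraries, so the groups did not overlap. In 36 of the 56 genes all 6 KO libraries lay below every SCR1 library, a pattern seen in 10.2% of all genes tested. The median log2 fold change was -0.18 over the 56 genes and 0.0028 over all genes. Of the 39 calls 17 held in all 21 analyses, the reported one included, among them those of PSMB5, PSMB6, PSMB7, PSMC1, PSMC2, PSMD3, PSMG1, CCT4 and CCT5. The log2 fold change was below 0 in 52 of the 56 genes, against 49.5% of all genes. In every alternative analysis all called members were lower, but their number depended on the analysis: it was 25 without SCR1 replicate 1, 21 with an offset for each gene's effective length and 18 with limma on log2(TPM + 1), against 4.93%, 5.17% and 4.36% of all genes called lower there. DESeq2 called 39, against 11.1% of all genes called lower by it.

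**Figure D2:**
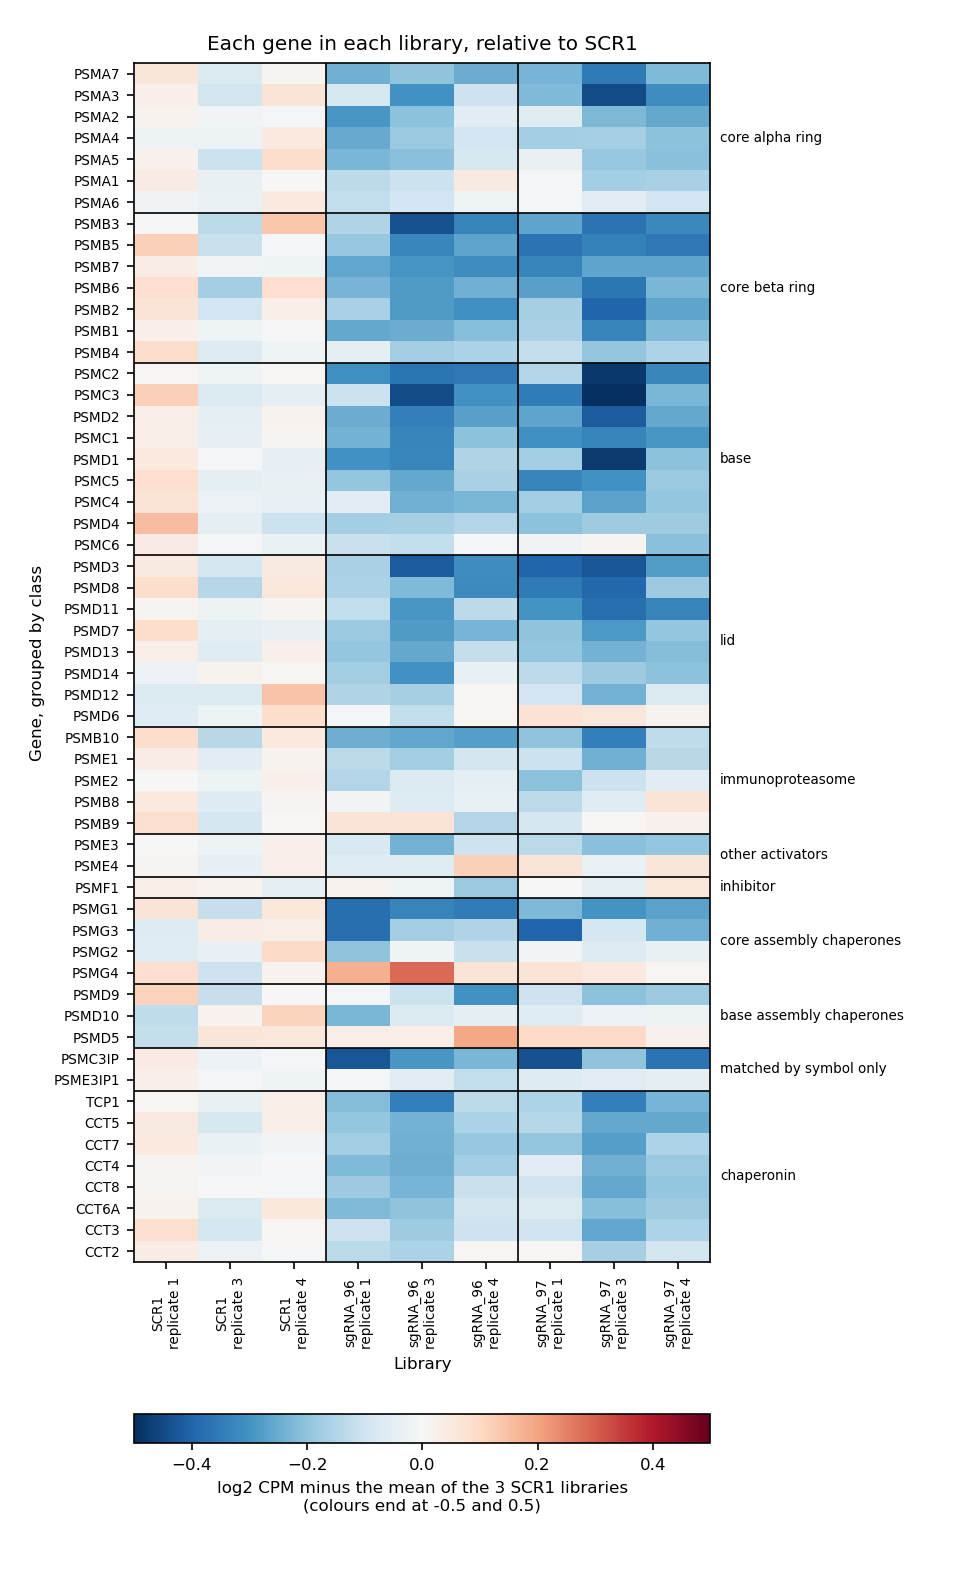
Each row is a gene and each column a library, coloured by log2 CPM minus the mean of the 3 SCR1 libraries, with blue lower and red higher, and lines separate classes and groups. Most core, base, lid and chaperonin rows are blue across the 6 KO columns, whereas PSMC6, CCT2, PSMB8, PSMB9, PSMD6, PSME4, PSMG4 and PSMD5 are pale or mixed.

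The beta ring changed as a whole. All 7 of its constitutive subunits fell, with a median log2 fold change of -0.28 and a range from -0.32 to -0.15. PSMB5, which carries the chymotrypsin-like active site, measured 83.0, 70.8 and 75.9 CPM in SCR1, 67.1, 60.9 and 63.6 with sgRNA_96 and 59.2, 60.5 and 59.6 with sgRNA_97. Every KO library lay below every SCR1 library for it, and the log2 fold change was -0.31 ± 0.06 (adjusted p = 0.0012, edgeR). PSMB6, with the caspase-like site, measured 118, 98.6 and 117 CPM in SCR1, 94.4, 91.1 and 93.8 with sgRNA_96 and 91.7, 86.3 and 94.6 with sgRNA_97. Its KO libraries also lay below the controls, the lowest of which was replicate 3, with a log2 fold change of -0.28 ± 0.06 (adjusted p = 0.0026, edgeR). PSMB7, with the trypsin-like site, measured 129, 125 and 124 CPM in SCR1, 105, 103 and 102 with sgRNA_96 and 99.9, 105 and 105 with sgRNA_97. This was the tightest of the trio, with SDs of 2.79 and 2.16 CPM in SCR1 and KO and a log2 fold change of -0.29 ± 0.04 (adjusted p = 0.00015, edgeR). PSMB3, a structural subunit, measured 106, 96.6 and 117 CPM in SCR1, 95.5, 78.5 and 84.1 with sgRNA_96 and 88.2, 82.1 and 84.8 with sgRNA_97. Its highest KO library, sgRNA_96 replicate 1, lay just below the lowest control, and the log2 fold change was -0.32 ± 0.06. PSMB4 was the one beta subunit whose call was lost without single libraries, SCR1 replicate 1 or 4, replicate 3 or 4 of either guide.

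In the alpha ring 5 of 7 genes fell, with a median log2 fold change of -0.18. PSMA7 had the largest change, -0.25 ± 0.04 on the log2 scale (adjusted p = 0.0011, edgeR), with PSMA3, PSMA2, PSMA4 and PSMA5 between -0.24 and -0.16. PSMA6, the most abundant, had a log2 fold change of -0.07 ± 0.04 (adjusted p = 0.25, edgeR), and PSMA1 had -0.09 ± 0.05 (adjusted p = 0.25, edgeR). PSMA5 passed narrowly, with adjusted p = 0.048 (edgeR). The count of 5 became 2 without SCR1 replicate 1, 1 without SCR1 replicate 4 and 3 without replicate 3 of either guide. Of all genes, 4.93% and 6.12% were called lower without these SCR1 libraries. Without replicate 3 of sgRNA_96 or sgRNA_97, 8.02% and 8.54% were. It was 1 with the length trend offset, 2 with the gene length offset or limma on TPM and 7 with the GC trend offset, where PSMA1 and PSMA6 were called too.

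In the base 8 of 9 genes fell, with a median log2 fold change of -0.27. PSMC2, an ATPase, measured 84.5, 82.7 and 84.5 CPM in SCR1, 67.8, 65.1 and 65.4 with sgRNA_96 and 75.8, 60.0 and 66.9 with sgRNA_97. All KO libraries were lower, sgRNA_97 replicate 1 least and sgRNA_97 replicate 3 most, for a log2 fold change of -0.33 ± 0.06 (adjusted p = 0.00099, edgeR). PSMC3, another of the ATPases, measured 157, 137 and 140.2 CPM in SCR1, 134, 106 and 117 with sgRNA_96 and 114, 101 and 123 with sgRNA_97. It varied more between KO libraries than the other base genes, from 101 to 134 CPM, and had a log2 fold change of -0.32 ± 0.07 (adjusted p = 0.0051, edgeR). PSMC1, also an ATPase, measured 133, 127 and 132 CPM in SCR1, 111, 104 and 114 with sgRNA_96 and 106, 104 and 107 with sgRNA_97. Its groups were well separated, with a log2 fold change of -0.28 ± 0.04 (adjusted p = 0.00033, edgeR). PSMD2, a scaffold subunit that receives ubiquitin-like shuttle proteins, measured 253, 239 and 249.8 CPM in SCR1, 208, 195 and 205 with sgRNA_96 and 206, 185 and 207 with sgRNA_97. It too was separated, with a log2 fold change of -0.30 ± 0.05 (adjusted p = 0.00026, edgeR). The one base gene that did not pass was the ATPase PSMC6, at -0.07 ± 0.05 (adjusted p = 0.35, edgeR). The base count was 5 without SCR1 replicate 1 (4.93% of all genes called lower), where PSMC3 was among the calls lost. It was 3 with the gene length offset (5.17%) or limma on TPM (4.36%).

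In the lid 6 of 8 genes fell, with a median log2 fold change of -0.22. PSMD3 had the largest change of all 56 genes and measured 168, 153 and 168 CPM in SCR1, 146, 122 and 131 with sgRNA_96 and 124, 121 and 134 with sgRNA_97. Its log2 fold change was -0.33 ± 0.06 (adjusted p = 0.00081, edgeR), a fall of 20.5% in mean CPM. PSMD8 measured 166, 142 and 162 CPM in SCR1, 140.0, 134 and 125 with sgRNA_96 and 122, 119 and 138 with sgRNA_97, with a log2 fold change of -0.27 ± 0.06 (adjusted p = 0.0048, edgeR). PSMD14, the deubiquitinase of the lid, fell by less, with a log2 fold change of -0.17 ± 0.05 (adjusted p = 0.029, edgeR). PSMD12 at -0.12 ± 0.06 and PSMD6 at 0.0050 ± 0.06 did not pass, and the latter changed sign in several analyses. PSMD14 lost its call without any 1 of the SCR1 libraries or without replicate 3 of either guide. The lid count was 3 with the gene length offset (5.17% of all genes called lower) or limma on TPM (4.36%).

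Assembly factors were split. For the core, PSMG1 measured 65.6, 57.9 and 65.1 CPM in SCR1, 48.4, 49.9 and 49.3 with sgRNA_96 and 53.7, 51.0 and 52.1 with sgRNA_97. Its KO libraries lay well below the controls, with a log2 fold change of -0.31 ± 0.05 (adjusted p = 0.00087, edgeR). PSMG3 also fell, by 0.23 on the log2 scale, a call lost without any 1 of the SCR1 libraries or sgRNA_97 replicate 1 or 4, where its log2 fold change was -0.27 to -0.20, whereas PSMG2 at -0.07 ± 0.05 and PSMG4 at 0.11 ± 0.07 did not pass. For the base, 0 of the 3 chaperones passed, with log2 fold changes of -0.16 for PSMD9, -0.07 for PSMD10 and 0.08 for PSMD5. The activator PSME3 fell with a log2 fold change of -0.16 ± 0.04 (adjusted p = 0.019, edgeR), a call lost without SCR1 replicate 1 or 4, and PSME4 at 0.02 ± 0.05 and the inhibitor PSMF1 at -0.03 ± 0.05 did not pass. PSMC3IP, which is not part of the proteasome, measured 26.4, 25.2 and 25.5 CPM in SCR1, 19.1, 21.0 and 22.0 with sgRNA_96 and 19.0, 22.4 and 19.9 with sgRNA_97. It was lower in every KO library, with a log2 fold change of -0.32 ± 0.07 (adjusted p = 0.0051, edgeR), and PSME3IP1 at -0.06 ± 0.04 did not pass.

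**Figure D3:**
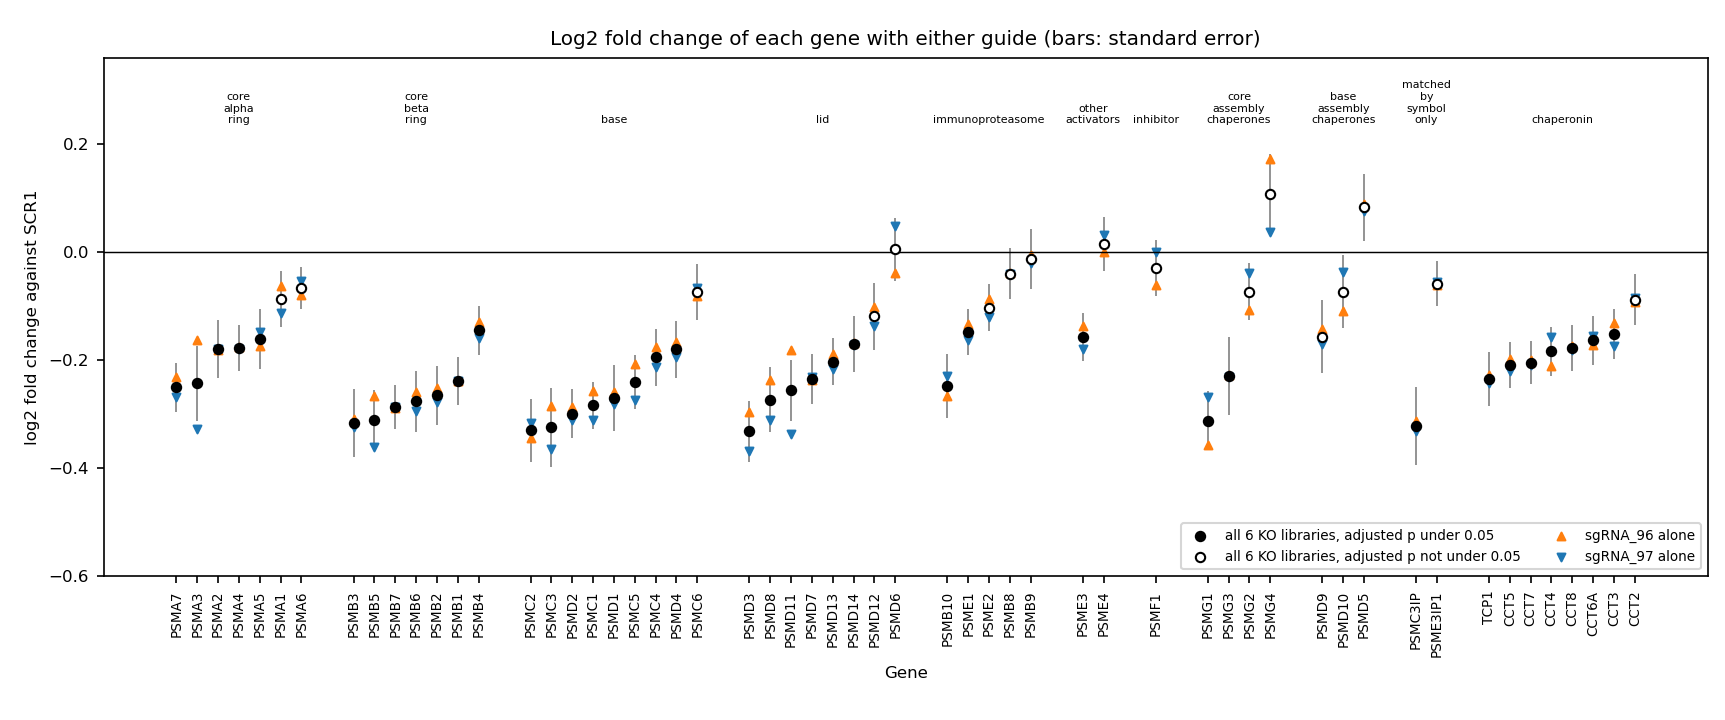
Log2 fold change against SCR1 for each tested gene, by class, with circles for the 6 KO libraries together (filled where adjusted p is under 0.05, bars for the standard error) and triangles for each guide alone. All 39 filled circles lie below 0, from -0.33 to -0.15, and PSMG4 at 0.11 and PSMD5 at 0.08 are the highest of the open ones.

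Of the 5 immunoproteasome genes 2 fell, with a median log2 fold change of -0.10. The difference between this class and the constitutive classes was not tested. PSMB8, the counterpart of PSMB5, measured 178, 164 and 173 CPM in SCR1, 170.3, 164 and 167 with sgRNA_96 and 156, 165 and 179.8 with sgRNA_97. The groups overlapped throughout, with a log2 fold change of -0.04 ± 0.05 (95% interval -0.14 to 0.06, adjusted p = 0.59, edgeR). PSMB9, the counterpart of PSMB6, measured 101, 90.4 and 95.999 CPM in SCR1, 100.0, 100.4 and 86.4 with sgRNA_96 and 90.3, 96.3 and 97.2 with sgRNA_97. Here too the groups overlapped, with a log2 fold change of -0.01 ± 0.06 (95% interval -0.13 to 0.10, adjusted p = 0.9, edgeR). The intervals of both genes exclude a fall as large as those of PSMB5 and PSMB6. The small differences of PSMB8 and PSMB9 changed sign with offsets for transcript length or GC content. The gene models of PSMB8 and PSMB9 lie on opposite strands of chromosome 6 and share exons with each other. Their RefSeq promoter windows, described below, lie apart, at bases 32843998 to 32844297 for PSMB8 and 32853942 to 32854241 for PSMB9. The transcript PSMB9-207 held 90.1% of the PSMB9 counts. PSMB8-AS1 shares exons with PSMB8 on the opposite strand and with PSMB9 on the same strand. The level of PSMB9 therefore rests on how Salmon divided the reads. Whether reads were counted by strand is not given in the sources used here. PSMB10, the counterpart of PSMB7, lies on chromosome 16 and measured 74.4, 63.6 and 72.5 CPM in SCR1, 59.1, 58.4 and 57.8 with sgRNA_96 and 60.8, 55.2 and 64.0 with sgRNA_97. In 5 of 6 KO libraries it was below every control, with a log2 fold change of -0.25 ± 0.06 (adjusted p = 0.0073, edgeR). PSME1 measured 254, 238 and 251 CPM in SCR1, 225, 219.6 and 233 with sgRNA_96 and 229.7, 209.6 and 225 with sgRNA_97 and PSME2 measured 183, 181 and 187 CPM in SCR1, 166, 175 and 178 with sgRNA_96 and 159, 170.5 and 177 with sgRNA_97. In both the KO libraries lay below the controls, with log2 fold changes of -0.15 ± 0.04 (adjusted p = 0.022, edgeR) and -0.10 ± 0.04 (adjusted p = 0.11, edgeR). The count of 2 was 0 without SCR1 replicate 1, with the gene length offset and with limma on TPM. It was 1 without SCR1 replicate 4 (6.12% of all genes called lower) and with the length trend offset (9.7%). With the replicate block and GC trend offset together it was 3 (14.2%).

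The balance between each active subunit and its inducible counterpart can be read as a ratio of TPM, given as a description. The ratio of PSMB8 to PSMB5 was 1.86, 1.997 and 1.98 in SCR1 replicates 1, 3 and 4 and ranged from 2.19 to 2.53 in the 6 KO libraries. The PSMB9 to PSMB6 ratio was 0.628, 0.677 and 0.591 in SCR1 and ranged from 0.702 to 0.848 in the KO libraries. For both pairs every KO ratio lay above every control ratio. PSMB10 to PSMB7 gave 0.593, 0.517 and 0.593 in SCR1 and 0.531 to 0.650 in the KO libraries, which overlapped. Per length, PSMB8 was thus the more abundant of its pair in every library, and PSMB9 and PSMB10 the less abundant of theirs.

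**Figure D4:**
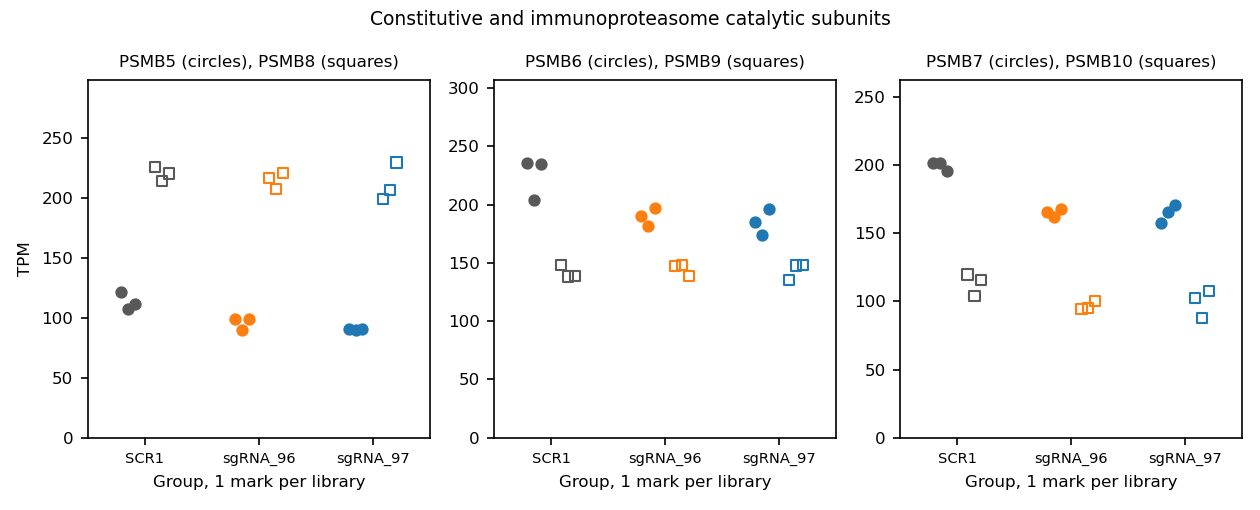
TPM of the constitutive active subunits (filled circles) and their inducible counterparts (open squares) in each library of SCR1, sgRNA_96 and sgRNA_97, with axes starting at 0. The circles of PSMB5, PSMB6 and PSMB7 are lower with both guides, the squares of PSMB8 and PSMB9 overlap those of the controls, and those of PSMB10 are lower in 5 of 6 KO libraries.

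Most immunoproteasome genes hold near their start a sequence that most genes lack, the core of the interferon-stimulated response element (GAAANNGAAA), to which interferon-activated factors bind. RefSeq windows of GRCh38.p14, from 250 bases before to 50 bases after each start, were given for 51 of the 58 members and searched on both strands. PSMB8, PSMB10, PSME1 and PSME2, 4 of the 5 immunoproteasome genes, held this core, as did PSMA4, PSMB4 and PSMG4, which makes 7 of 51 members (13.7%) against 4.38% of 27305 genes. Within 75 bases around the start of each of these 4 genes, 60 before and 15 after, the match is set in capitals and read along the gene's strand. The stretches are chr6:32844033-32844107 (minus strand), chr16:67936836-67936910 (minus), chr14:24136134-24136208 (plus) and chr14:24146596-24146670 (minus).
PSMB8: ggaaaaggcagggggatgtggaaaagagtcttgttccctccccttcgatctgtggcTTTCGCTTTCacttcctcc
PSMB10: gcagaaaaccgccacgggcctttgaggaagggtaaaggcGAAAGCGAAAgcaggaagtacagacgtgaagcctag
PSME1: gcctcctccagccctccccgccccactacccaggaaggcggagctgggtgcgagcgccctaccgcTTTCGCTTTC
PSME2: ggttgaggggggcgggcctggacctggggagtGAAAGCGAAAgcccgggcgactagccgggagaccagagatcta
In all 4 the matched letters were GAAAGCGAAA, on the gene's strand in PSMB10 and PSME2 and on the opposite strand in PSMB8 and PSME1. PSMB9 had no match in its window. Of these 4 genes, PSMB10 and PSME1 fell and PSMB8 and PSME2 did not pass.

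Partners of the immunoproteasome in antigen presentation and interferon signalling were also counted, and the difference from the proteasome genes was not tested. Of 10 such genes tested 1 rose, close to the share of all genes called higher (10.1%), and 0 fell, and the median log2 fold change was 0.07. The one that rose was NLRC5, the transactivator of MHC class I genes, which measured 109, 109.6 and 108 CPM in SCR1, 158, 167 and 157 with sgRNA_96 and 146, 174 and 169.9 with sgRNA_97. All KO libraries lay far above the controls, with a log2 fold change of 0.57 ± 0.05 (adjusted p = 3.5e-06, edgeR). TAP1, a peptide transporter subunit beside PSMB8 and PSMB9, had 108 ± 2.58 CPM in SCR1 and 108 ± 5.24 CPM in KO, and TAP2 had a log2 fold change of 0.07 ± 0.05.

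The chaperonin fell nearly as a unit: 7 of its 8 genes passed, with a median log2 fold change of -0.18 and a range from -0.24 to -0.09. TCP1 measured 301, 292 and 306 CPM in SCR1, 258, 236 and 273 with sgRNA_96 and 269, 236 and 255 with sgRNA_97. All KO libraries lay below the controls, with both replicate 3 libraries lowest, and the log2 fold change was -0.24 ± 0.05 (adjusted p = 0.0037, edgeR). CCT5, with the highest TPM summed over transcripts, measured 449, 412 and 446 CPM in SCR1, 381, 369 and 391 with sgRNA_96 and 394, 365 and 365 with sgRNA_97, a log2 fold change of -0.21 ± 0.04 (adjusted p = 0.0028, edgeR). CCT7 measured 416, 394 and 399 CPM in SCR1, 358, 342 and 354 with sgRNA_96 and 352, 333 and 362 with sgRNA_97, with -0.20 ± 0.04 on the log2 scale (adjusted p = 0.0019, edgeR). These groups did not overlap. CCT8 measured 306, 303 and 301 CPM in SCR1, 267, 258 and 281 with sgRNA_96 and 283, 254 and 265 with sgRNA_97, with a log2 fold change of -0.18 ± 0.04 (adjusted p = 0.0081, edgeR). CCT4 measured 269, 264 and 267 CPM in SCR1, 229, 225 and 237 with sgRNA_96 and 257, 226 and 235 with sgRNA_97, with a log2 fold change of -0.18 ± 0.05 (adjusted p = 0.009, edgeR). Controls of CCT4 and CCT8 spread over only a few CPM, and sgRNA_97 replicate 1 came nearest to them. CCT6A had 329 ± 13.7 CPM in SCR1 and 294 ± 13.4 CPM in KO, a log2 fold change of -0.16 ± 0.05 (adjusted p = 0.018, edgeR). CCT3 had 381 ± 22.3 and 343 ± 14.7 CPM, a log2 fold change of -0.15 ± 0.05 (adjusted p = 0.031, edgeR). CCT2 was the member that did not pass: it measured 316, 302 and 307 CPM in SCR1, 281, 276 and 311 with sgRNA_96 and 309, 275 and 289 with sgRNA_97, with 4 of 6 KO libraries below every control and a log2 fold change of -0.09 ± 0.05 (adjusted p = 0.21, edgeR). Without SCR1 replicate 1 or 4 the count was 5, with CCT3 and CCT6A lost, where 4.93% and 6.12% of all genes were called lower. With limma on TPM it was 2, CCT4 and CCT5, where 4.36% were.

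Genes of proteins that need the chaperonin to fold were mostly lower as well. Of 16 client genes tested 12 fell and 0 rose, with a median log2 fold change of -0.27. TUBA1B, an alpha tubulin, fell from 3894 ± 164 to 3046 ± 95.2 CPM, TUBA1A from 248 ± 14.8 to 169.7 ± 12.4 CPM, and the cytoplasmic actin ACTG1 from 3463 ± 173 to 2670.1 ± 130.0 CPM (SD, n = 3 and 6). Their log2 fold changes were -0.35 ± 0.04, -0.55 ± 0.06 and -0.38 ± 0.04. A further 11 genes tested, listed as cofactors, were the prefoldin and phosducin-like genes with PDCD5, TXNDC9 and CCT6B. Of these only PFDN6 passed, with a log2 fold change of -0.28 ± 0.07 (adjusted p = 0.0063, edgeR), where 10.6% of all genes were called lower. The count of cofactors was 3 without sgRNA_96 replicate 1 or 4 or sgRNA_97 replicate 1, and 6 with the GC trend offset.

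Several other chaperone genes fell in the same comparison. Of 15 genes of the cytosolic Hsp70 and Hsp90 system and its regulators, 9 fell, against 10.6% of all genes, and 0 rose. The median log2 fold change of the 15 was -0.27. With the gene length offset 7 fell and 1 rose, and with limma on TPM 6 fell and 1 rose, HSF2 in both. The co-chaperone DNAJB1 changed by -0.32 ± 0.05, HSP90AA1 by -0.32 ± 0.06 and the inducible HSPA1B by -0.49 ± 0.10 on the log2 scale. HSF1, the regulator of heat shock genes, had a log2 fold change of -0.02 ± 0.07 (adjusted p = 0.88, edgeR). The mitochondrial chaperonin genes HSPE1 and HSPD1 both fell, by 0.34 and 0.30 on the log2 scale. HSPA1B and HSPA1A are near-identical copies, so their reads rest on the division made by Salmon.

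The partners of the proteasome were split. Of 17 shuttle, deubiquitinase and assembly genes 6 fell and 0 rose, with a median log2 fold change of -0.08. Over all genes 10.6% were called lower and 10.1% higher. UFD1, a cofactor of VCP, changed by -0.31 ± 0.05, the ubiquitin receptor ADRM1 by -0.38 ± 0.10 and the small lid subunit SEM1 by -0.19 ± 0.05 on the log2 scale. VCP, RAD23B and POMP, the maturation factor of the core, were the others that fell. Among 6 ubiquitin and E1 genes UBA1, the main ubiquitin-activating enzyme, fell with a log2 fold change of -0.15 ± 0.05, UBA6 rose with 0.17 ± 0.05, and the 4 ubiquitin genes did not pass. Of 10 regulators tested 1 rose and 1 fell, near the shares of all genes called higher and lower. FOXO4 rose with 0.33 ± 0.10 and NFYB, a subunit of the factor that binds CCAAT boxes, fell with -0.17 ± 0.05. NFE2L1, which induces proteasome genes when the protease is inhibited, had a log2 fold change of -0.10 ± 0.05 (adjusted p = 0.12, edgeR), and NFE2L2 had -0.10 ± 0.05. Over the alternative analyses the partners that fell numbered 1 to 7, and FOXO4, NFYB, UBA1 and UBA6 were not called in all of them. The count of 1 came without SCR1 replicate 1 or 4, where 4.93% and 6.12% of all genes were called lower. The count of 7 came with the replicate block and GC trend offset together, where 14.2% were.

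The promoters of members that fell were read for motifs of such regulators, as a description. The CCAAT box (CCAAT) lay in 26 of 51 members (51.0%) against 39.7% of all 27305 genes, in 20 of 32 members that fell and in 5 of 17 that were tested and did not pass. By class it lay in 4 of 6 alpha ring, 3 of 4 beta ring, 3 of 8 base, 5 of 8 lid and 4 of 7 chaperonin genes. The ETS core (CCGGAAG) lay in 18 of 51 (35.3%) against 12.2%, in 7 of the 32 and 10 of the 17. The antioxidant response element core (TGACNNNGC), bound by NFE2L1 and NFE2L2, lay in 16 of 51 (31.4%) against 16.1%, in 9 of the 32 and 7 of the 17. The E-box (CACGTG) was held by 4 members (7.84% against 8.77%) and the heat shock element (GAANNTTCNNGAA) by 0 (against 0.608%). No match of a motif shared bases with a match of another. The genes with the largest fall in the beta ring, the base, the lid and the chaperonin, PSMB3, PSMC2, PSMD3 and TCP1, each held a CCAAT box before the start, and PSMA7, with the largest fall in the alpha ring, was among the 7 members with no window. Their 250 bases before the start are shown along the gene's strand, with CCAAT or its complement ATTGG in capitals, from chr17:38752491-38752740 (plus strand), chr7:103347393-103347642 (plus), chr17:39980557-39980806 (plus) and chr6:159789603-159789852 (minus).
PSMB3: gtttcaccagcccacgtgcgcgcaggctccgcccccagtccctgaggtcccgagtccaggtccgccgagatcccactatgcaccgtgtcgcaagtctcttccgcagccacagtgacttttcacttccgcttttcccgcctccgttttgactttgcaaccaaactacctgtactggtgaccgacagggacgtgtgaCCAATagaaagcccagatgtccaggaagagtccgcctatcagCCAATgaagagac
PSMC2: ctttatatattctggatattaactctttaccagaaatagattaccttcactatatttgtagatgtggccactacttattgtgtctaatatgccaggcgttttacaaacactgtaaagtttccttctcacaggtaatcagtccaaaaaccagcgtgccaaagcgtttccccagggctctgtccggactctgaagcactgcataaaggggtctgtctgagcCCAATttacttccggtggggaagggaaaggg
PSMD3: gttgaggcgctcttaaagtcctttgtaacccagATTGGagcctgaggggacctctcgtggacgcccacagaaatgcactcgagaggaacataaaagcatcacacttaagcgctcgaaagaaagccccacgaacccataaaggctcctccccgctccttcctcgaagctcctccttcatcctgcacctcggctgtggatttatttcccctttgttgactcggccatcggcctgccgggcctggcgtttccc
TCP1: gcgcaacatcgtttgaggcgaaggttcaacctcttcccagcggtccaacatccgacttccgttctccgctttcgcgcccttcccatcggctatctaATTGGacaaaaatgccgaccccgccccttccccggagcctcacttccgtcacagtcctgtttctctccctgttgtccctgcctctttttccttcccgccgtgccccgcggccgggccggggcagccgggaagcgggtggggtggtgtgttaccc
PSMB3 had 2 boxes, at bases -55 to -51 and -13 to -9 from the start, and the other genes had 1 each. Matches of other motifs are not marked: an ETS core in PSMC2, and an antioxidant response element core in both PSMB3 and PSMD3. PSMB3 also held an E-box. The part of any motif in the falls was not tested.

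Each guide alone gave the same direction. Against SCR1, 27 of 56 members fell with sgRNA_96, where 5.41% of all genes were called lower, and 31 of 56 fell with sgRNA_97, where 7.76% were. The count of members that rose was 0 with either guide, where 5.78% and 7.35% of all genes were called higher. Both comparisons use the same 3 SCR1 libraries. With sgRNA_96 the count was 6 without its replicate 3, 5 without SCR1 replicate 1 and 7 without SCR1 replicate 4, where 2.13%, 2.17% and 2.67% of all genes were called lower. With sgRNA_97 it was 9 without its replicate 3, 12 without SCR1 replicate 1 and 17 without SCR1 replicate 4, where 3.31%, 3.06% and 4.09% of all genes were. Replicate 3 was the lowest library of its group in the class medians of the beta ring, base, lid and chaperonin. This held in SCR1 as well as with both guides, and the part of replicate 3 in these counts was not tested. In the base the median log2 CPM relative to the SCR1 mean was -0.33 in replicate 3 of both guides, -0.20 to -0.21 in the other KO libraries and -0.04 in SCR1 replicate 3. In all, 26 genes were called in the 6 KO libraries together, with sgRNA_96 alone and also with sgRNA_97 alone. They were 6 of 7 in the beta ring, 6 of 9 in the base, 5 of 8 in the lid, 4 of 8 in the chaperonin, 2 of 7 in the alpha ring, PSMB10, PSMG1 and PSMC3IP. PSMB5 had log2 fold changes of -0.27 with sgRNA_96 and -0.36 with sgRNA_97, PSMB7 had -0.29 and -0.29, and PSMD3 had -0.30 and -0.37.

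Between the guides, 0 of 56 members differed at an adjusted p under 0.05 (edgeR), where 0.0208% of all genes did, and DESeq2 also called 0 members. At an unadjusted p under 0.05 there were 2, PSMD11 and PSMA3, against 3.48% of all genes. PSMD11, a lid subunit, had a log2 fold change of -0.15 ± 0.06 for sgRNA_97 against sgRNA_96, and PSMA3 had -0.17 ± 0.07. These tests do not show that the guides act alike.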

How the data were processed

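RNA was measured in 9 libraries of HAL-01 cells, grouped by the guide in their titles. Libraries were made by the authors from polyadenylated RNA with a TruSeq kit, and after trimming and STAR alignment to GRCh38 transcripts were quantified with Salmon 1.10.1. They deposited estimated counts (expected counts) per transcript, without normalization, and TPM, which Salmon scales by effective transcript length to a fixed total. All 252835 transcripts matched GENCODE release 44. Whether counting used strand is not given in the sources used here.

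Counts were summed per gene, rounded, kept by filterByExpr of edgeR 4.0.16 (minimum count 10), scaled by TMM and tested with its quasi-likelihood test in R 4.3.3. P-values were adjusted by Benjamini-Hochberg across the 14436 tested genes and called under 0.05. Fold changes carry standard errors. The 6 KO libraries formed 1 group against SCR1, and guides came from a fit of 3 groups. The study's methods name DESeq2, which was run as an alternative (1.42.0), as was limma 3.58.1 on log2(TPM + 1). Other alternatives were DESeq2 size factors, no filter, offsets for gene length, length trend and GC trend, a replicate block, added pseudogene counts and each library left out. The GC trend was chosen after the data were seen. Tests were checked on simulated counts.

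Members, classes, pathway lists and the rule for named genes were chosen with earlier results of these data known. The rule named up to 12 members called over all KO libraries and also with each of the guides alone, by size of change. It also named the catalytic pairs, PSME1, PSME2, the chaperonin, the highest and lowest member of each class in SCR1, and up to 3 called genes of each list by smallest p. Other members were named after their values were seen. Replicates of a group differed by 4.31 to 8.59 times the chi-square that counting alone would give, so none was a copy of another. Depth limits each value through counting error. Over all genes this error was smaller than the spread between libraries, but for single members it was not compared with that spread.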

Additional observations from a re-analysis of the deposited data

Results flagged for a closer look

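Among the 56 tested genes, 2 had a KO library far from the other 5, where chance alone flags about 1 gene in 20, or 2.80 of 56. PSMA7 measured 148 CPM in sgRNA_97 replicate 3, against 159 to 164 CPM in the other KO libraries. PSMD10 measured 29.0 CPM in sgRNA_96 replicate 1, against 32.4 to 33.4 CPM in the others.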

How the results depend on the processing

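The direction of the members called lower was the same in all alternatives run, and 0 members were called higher in any of them. The number called was 39 in the enhancer KO comparison, 27 with sgRNA_96 and 31 with sgRNA_97, and leaving out 1 library gave 25 to 39, 5 to 25 and 9 to 34. The lowest of these counts came where 4.93%, 2.17% and 3.31% of all genes were called lower. A gene length offset gave 21, 6 and 10, where 5.17%, 1.77% and 2.83% of all genes were called lower. Limma on log2(TPM + 1) gave 18, 3 and 7, where 4.36%, 1.26% and 2.4% were. A length trend offset gave 12 with sgRNA_96, where 4.9% were. In these the cause was not tested, except that a library left out means fewer samples. Over all genes, deviations of same-numbered libraries from their group means correlated at -0.066 to 0.055, so the numbers were not taken as pairs, although replicate 3 was lowest of each group in the medians of 4 classes of members, and the fit with the replicate block called 39, 27 and 33. Between the guides 0 members were called in any alternative.

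Class medians of log2 fold change moved by more than the spread between replicates in these cases. For the immunoproteasome the length trend offset gave -0.030 and with the replicate block -0.032. For the base assembly chaperones leaving out 1 library gave -0.097 to -0.016. For PSMC3IP and PSME3IP1 the gene length offset, the length trend offset, the latter with the replicate block, and limma on TPM gave -0.14, -0.14, -0.14 and -0.13.

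Only members not called changed sign. With the gene length offset these were PSME4 (-0.0080), PSMD6 (-0.051), PSME3IP1 (0.017) and PSMB9 (0.022), with limma on TPM PSME4 (-0.0048), PSMD6 (-0.046), PSME3IP1 (0.020) and PSMB9 (0.025), and with no filter on low counts PSMD6 (-0.0050). With the length trend offset, without and with the replicate block, they were PSME4 (-0.030 and -0.029), PSMA6 (0.0043 and 0.0044), PSMB8 (0.017 and 0.017) and PSMB9 (0.056 and 0.056). With the GC trend offset, chosen after seeing the data, without and with the block, they were PSME4 (-0.016 and -0.015), PSMF1 (0.013 and 0.013), PSMD6 (-0.014 and -0.012), PSMB8 (0.0014 and 0.00081) and PSMB9 (0.013 and 0.013). Leaving out 1 library gave -0.0092 to 0.030 for PSME4, -0.030 to 0.050 for PSMD6 and -0.055 to 0.027 for PSMB9. Of the other values of single members 969 stayed on their side of the threshold, 103 lost and 12 gained a call.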
